A study of Mus musculus with 19 samples.

Results

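Genes that encode voltage-gated ion channels and the channels related to them were followed through the development of glia in the mouse sciatic nerve. Membership followed gene name, as every probe set with a single annotated symbol that begins with Kcn, Scn and a digit, Cacn, Hcn, Clcn, Trpc, Trpm or Trpv and a digit, or P2rx. That gave 101 of the 12488 probe sets of the array, and they stand for 80 of its 8251 named genes. These members, and the other gene lists used below, were chosen with earlier results of these data known. Cells that carried green fluorescent protein were sorted from transgenic mouse embryos and newborns, whose reporter is driven by a promoter of neural crest stem cells that stays active in glia. The E9.5 group (3 arrays) holds cells of the trunk, labelled neural crest stem cells. The other 5 groups come from the sciatic nerve, at E12 (3 arrays, Schwann cell precursor cells), E14 (3 arrays, Schwann cells), E16 (4 arrays, early Schwann cells), E18 (3 arrays) and P0, the day of birth (3 arrays). All 6 groups carry the same reporter, no group received a treatment, and the sort keeps every cell that fluoresces, so its purity rests on where the promoter is active. E9.5 differs from the nerve groups in both stage and body region, and these cannot be told apart. Nothing in the labels ties the arrays to separate animals or litters, and the p-values therefore measure only the spread between these samples, which may be technical.

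Ion channels are membrane proteins that let ions cross when the membrane voltage changes or when a ligand, heat or stretch opens them. The potassium channels among them bring the membrane towards rest, sodium and calcium channels carry the inward currents of excitable cells, and HCN channels open as the membrane becomes negative. Schwann cells fire no action potentials, but cultured and freshly isolated Schwann cells are known to carry delayed rectifier potassium currents that accompany proliferation and inward rectifier currents that appear near myelinated axons. Not every product of these genes is a plasma membrane channel. Several ClC proteins exchange chloride for protons in endosomes and lysosomes, Kcnab, Kcne, Cacnb, Cacng and Cacna2d genes encode auxiliary subunits, and Trpc4ap, which the name rule caught, encodes a protein that binds a TRP channel.

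The values are expression indices, the model-based estimate of the brightness of a probe set on an array, on a linear intensity scale. Array medians lay between 174 and 207. The floor, under which values were not ordered, was 68.5, the 25th percentile of all values, and each array had 22.6 to 27.2% of its probe sets at or below it. The GAPDH control signal near the 3' end over that near the 5' end, a ratio that grows as the amplified RNA gets shorter, was 2.33 to 3.41 on the E9.5 arrays, 3.18 to 4.53 on those of E12, 5.1 to 6.23 (E14), 3.84 to 9.12 (E16), 4.11 to 4.83 (E18) and 4.69 to 7.69 (P0). The lowest rank correlation between arrays of the same stage was 0.894, at P0. Of 8 glial markers 5 were on the array, and Sox10 and Erbb3, which define this lineage, had stage means of 1380 to 2340 and 1770 to 3900, while S100b lay at the floor on every array up to E16. The summed index of the 5 glial markers was 4330 to 5190 at E9.5, 10200 to 12500 at E12 and 3280 to 7480 at P0. Markers of other cells moved too. The summed index of 8 fibroblast markers was 1230 to 1880 at E9.5, 11500 to 14000 at E12 and 21600 to 29500 at P0, and that of 12 macrophage markers was 1500 to 1730, 2590 to 5170 and 1560 to 1980 at these stages. The 15 neuronal markers summed to 2950 to 3040 at E9.5, 2810 to 3260 at E12 and 2310 to 2720 at P0, with Syt1, Elavl4 and Isl1 at the floor on every array. In such bulk samples, fewer cells of a type and less RNA per cell cannot be told apart.

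At each stage, fewer than 50% of the channel probe sets lay above the middle of all values. A probe set was taken as expressed at a stage when its mean log2 index lay above 7.55 (an index of 188), the 50th percentile of all values. Of the 101 channel probe sets, 49 passed this in at least 1 stage (48.5%, against 59.4% of all probe sets), standing for 41 genes, and 34 passed it in every stage. The other 52 lay below it at every stage, and 15 of these were at or below the floor on all 19 arrays. Above it were 36 channel probe sets in crest stem cells (E9.5), 41 in the E12 nerve, then 44, 43 and 44 in the following stages and 45 at birth. These are 35.6% at the first of these stages and 44.6% at the last, whereas over all probe sets the share was 49.5% at both. The members nearest the limit were Kcns1 (highest stage mean 7.51), Trpc1 (7.43) and Kcnk1 (7.40) just under it and Kcnmb1 (7.59), Clcn7 (7.63, probe set 104391_s_at) and Kcnq1 (7.67, probe set 161796_r_at) just over it. Since brightness also depends on the probes, the level of one probe set was not set against that of another.

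Most expressed channels had similar stage means throughout development. Between the lowest and the highest stage mean, 37 of the 49 (75.5%) differed by under 1 on the log2 scale, against 59.7% of the 7374 probe sets that passed the same limit. Under 0.5 lay 46.9% of the channel probe sets and 24.3% of all. The median range was 0.58 for the channels and 0.82 for all, which describes these arrays and was not tested. In the heat map of all 49 probe sets, most rows keep a similar colour from E9.5 to P0. The 12 rows that range over 1 or more belong to Kcna1, P2rx4, Clcn5 and Clcn4 (both probe sets of each of these 2 genes), Scn10a, Clcn3 (3 probe sets), Kcnj9 (98332_at) and Clcn1 (95376_at).

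**Figure D1:**
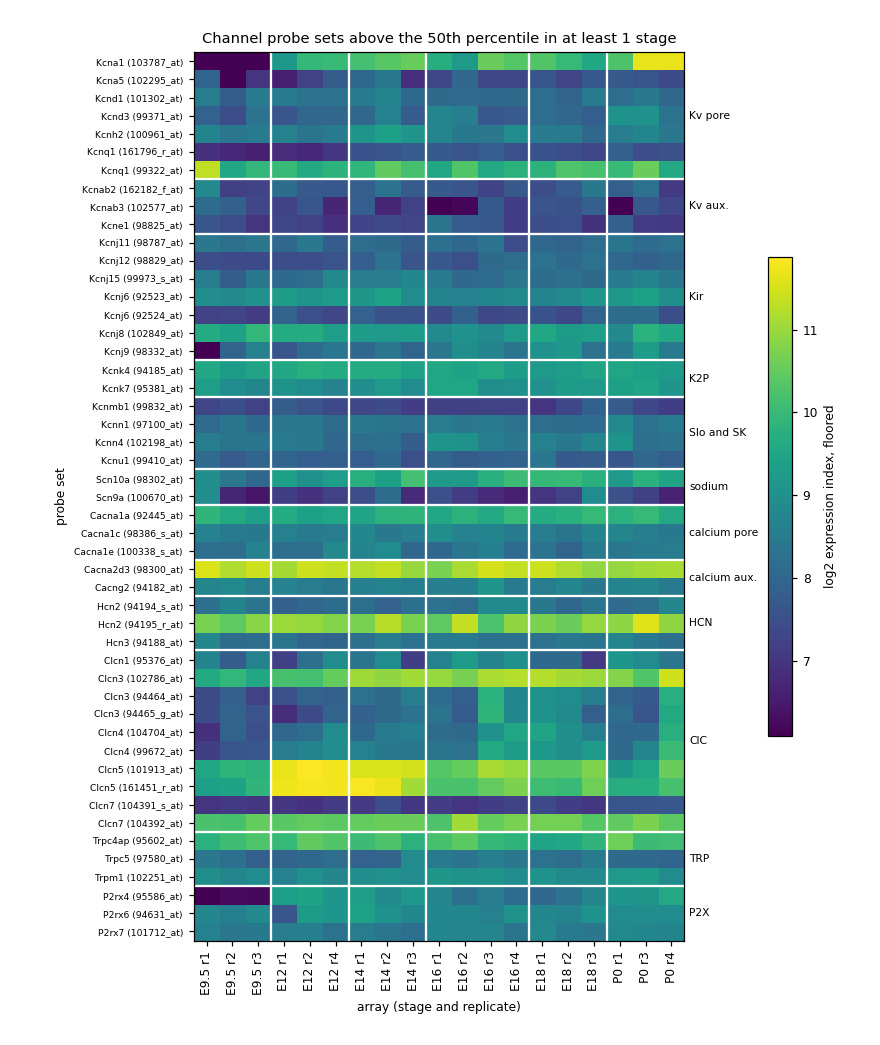
Each row is a channel probe set above the 50th percentile in at least 1 stage (49 rows, grouped by family) and each column an array, in order of stage and replicate (r). Colour is the log2 expression index after the floor, and the rows of Kcna1 and P2rx4 are dark on the 3 E9.5 arrays and bright on all others.

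Tests ran on every probe set above the floor on at least 3 arrays, 10414 in all, of which 84 were channel probe sets (72 genes). The 17 left out stand for 13 genes, 8 of them with no tested probe set. Each stage was compared with the one before it and P0 with E12. Called means a Benjamini-Hochberg adjusted p under 0.05 in limma's moderated test. In at least 1 of the 6 comparisons 9 channel probe sets were called, 10.7% of those tested, against 26.1% of all probe sets tested. They belong to Kcna1, Kcna4, Kcna7, Kcnq1, Kcns1, P2rx4, Clcn7 and, with both of its probe sets, Clcn5. A moderated F-test over all 6 stages called 13 (15.5%, against 29.0% of all), and over the 5 nerve stages 8 (9.52%, against 13.1%). The bar chart of these shares shows the channel bar below that of all probe sets for both large spans, E12 against E9.5 and P0 against E12.

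**Figure D2:**
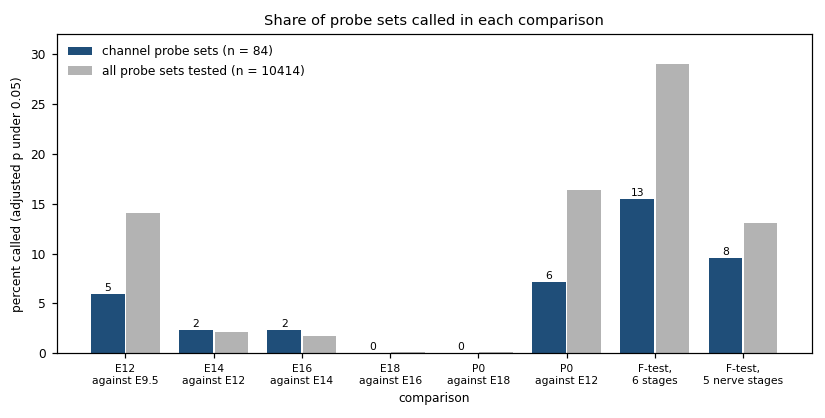
Bars give the percent of tested probe sets called at an adjusted p under 0.05 in each comparison and F-test, for the 84 channel probe sets (dark, with their number above the bar) and for all 10414 (grey). For E12 against E9.5 the bars stand at 5.95 and 14.1%, and for P0 against E12 at 7.14 and 16.4%.

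E12 against E9.5 compares cells of the early nerve with crest stem cells of the trunk. P2rx4, Clcn5 (both probe sets), Kcna1 and Kcna7 were higher at E12, and no channel probe set was lower. These are 5 of 84 (5.95%), where 14.1% of all probe sets were called, 9.70% as higher and 4.41% as lower. Under quantile normalization the latter became 923 higher and 748 lower probe sets, from 1010 and 459. The median change was 0.01 for the channels and 0.01 for all. Beside these rises stand those of markers of other cells, 4 of 8 fibroblast markers, 5 of 10 tested macrophage markers, 3 of 7 erythroid ones, 2 of 11 neuronal ones (Gap43 and Uchl1) and 1 of 6 mural cell ones (Mcam), and their part in the channel results was not tested.

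P2rx4 encodes an ATP-gated cation channel with high calcium permeability. Its index was 68.8, 76.4 and 74.1 at E9.5 and 643, 702 and 549 at E12. The E9.5 arrays sat just over the floor and the E12 arrays far above it, with no overlap. The rise was 8.6-fold (log2 change 3.10, SE 0.21, adjusted p = 2.8e-08), with 3.22 within lot 1 and 3.20 within lot 2, the lots being batches that the labels number without saying of what. The index then ran 634, 455 and 584 at E14, lay between 277 and 426 at E16 and between 259 and 426 at E18, and was 564, 570 and 771 at P0. The F-test over the nerve stages called it (adjusted p = 0.0031), although no nerve comparison did (E16 against E14 -0.71, SE 0.20, adjusted p = 0.089; P0 against E18 0.94, SE 0.21, adjusted p = 0.096). P0 against E12 gave a change of -0.00 (SE 0.21). The macrophage markers, whose sums are given above, also moved between these stages, and their part in the P2rx4 values was not tested.

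Clcn5 encodes ClC-5, a chloride and proton exchanger of endosomes whose loss causes a kidney disease of protein reabsorption. Probe set 101913_at read 749, 946 and 904 at E9.5 and 3290, 3760 and 3480 at E12, a 4.06-fold rise (log2 change 2.02, SE 0.27, adjusted p = 7.9e-05). Probe set 161451_r_at read 656, 700 and 940 and then 3420, 3580 and 3520, a 4.64-fold rise (2.21, SE 0.23, adjusted p = 4.6e-06). Both probe sets separate the stages without overlap. Within lots 1 and 2 the changes were 2.13 and 1.99 for the former and 2.38 and 2.35 for the latter.

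Kcna1 encodes Kv1.1, a delayed rectifier subunit that opens at small depolarisations. It was listed at 0 on all 3 E9.5 arrays and read 581, 993 and 1040 at E12. No fold is given against a stage listed at 0. On the floored log2 scale the change was 3.62 (SE 0.38, adjusted p = 6.3e-06), a size that the floor sets, and it was 2.71 to 4.98 over the alternatives. Kcna7, another member of the Kv1 subfamily, was near the floor throughout. It read 60.4, 64.3 and 47.1 at E9.5, all below the floor, and 89.7, 118 and 95 at E12, at least 1.46-fold higher (log2 change 0.55, SE 0.17, adjusted p = 0.039). This call was lost under 10 of its 27 alternatives, with an adjusted p of 0.0049 to 0.19. Among these were the fit with the lot as a block (0.074), the GAPDH signal as a covariate (0.1) and the omission of any 1 of the 6 arrays of these stages (0.052 without E12 replicate 1 to 0.19 without E12 replicate 2) or of E18 replicate 2 (0.051).

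The stretch before the start of transcription is shown for P2rx4 and Clcn5, the genes with the rises just described for which the RefSeq promoter table (GRCm38.p6) has an entry. P2rx4 has 1 start, on the plus strand, and the bases shown are chr5:122707294-122707543. Clcn5 has 2 starts on the minus strand, with chrX:7188715-7188964 before the first and chrX:7319359-7319608 before the second. Each run holds the 250 bases before the start, 5' to 3' on the gene's strand. Capitals mark matches, on either strand, to ACAAAG (the core of sites bound by SOX factors), GGGCGG (the GC box) or TATAAA (the TATA box), and no matches overlap.
P2rx4: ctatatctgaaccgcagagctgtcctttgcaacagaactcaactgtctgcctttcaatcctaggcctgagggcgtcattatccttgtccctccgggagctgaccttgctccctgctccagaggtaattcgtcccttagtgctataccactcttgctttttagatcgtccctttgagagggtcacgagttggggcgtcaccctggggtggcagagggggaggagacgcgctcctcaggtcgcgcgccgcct
Clcn5 start 1: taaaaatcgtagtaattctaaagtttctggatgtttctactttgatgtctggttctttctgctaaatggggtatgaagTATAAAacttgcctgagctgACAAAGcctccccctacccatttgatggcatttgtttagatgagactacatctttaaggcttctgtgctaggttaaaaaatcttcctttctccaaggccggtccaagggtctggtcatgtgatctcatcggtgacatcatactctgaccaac
Clcn5 start 2: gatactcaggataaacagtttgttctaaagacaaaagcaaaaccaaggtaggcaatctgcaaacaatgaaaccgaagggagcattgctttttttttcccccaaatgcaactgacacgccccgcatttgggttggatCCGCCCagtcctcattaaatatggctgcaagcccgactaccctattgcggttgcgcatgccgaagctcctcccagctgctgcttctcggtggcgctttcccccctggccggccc
The P2rx4 run holds none of the 3 motifs and 13 CpG pairs. The first Clcn5 run holds 1 TATAAA and 1 ACAAAG with 3 CpG pairs, and the second 1 GC box, read on the other strand, with 11 CpG pairs. Of the 80 channel genes 65 had an entry, with 86 starts in all. ACAAAG lay before 17.4% of these starts and 16.5% of all 32851 starts in the table, GGGCGG before 41.9% and 32.7%, and TATAAA before 5.81% and 12.4%. Median GC content was 57.2% for the channel genes and 52.4% for all. A match to these letters is a description of the sequence and does not show that a factor binds.

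**Figure D3:**
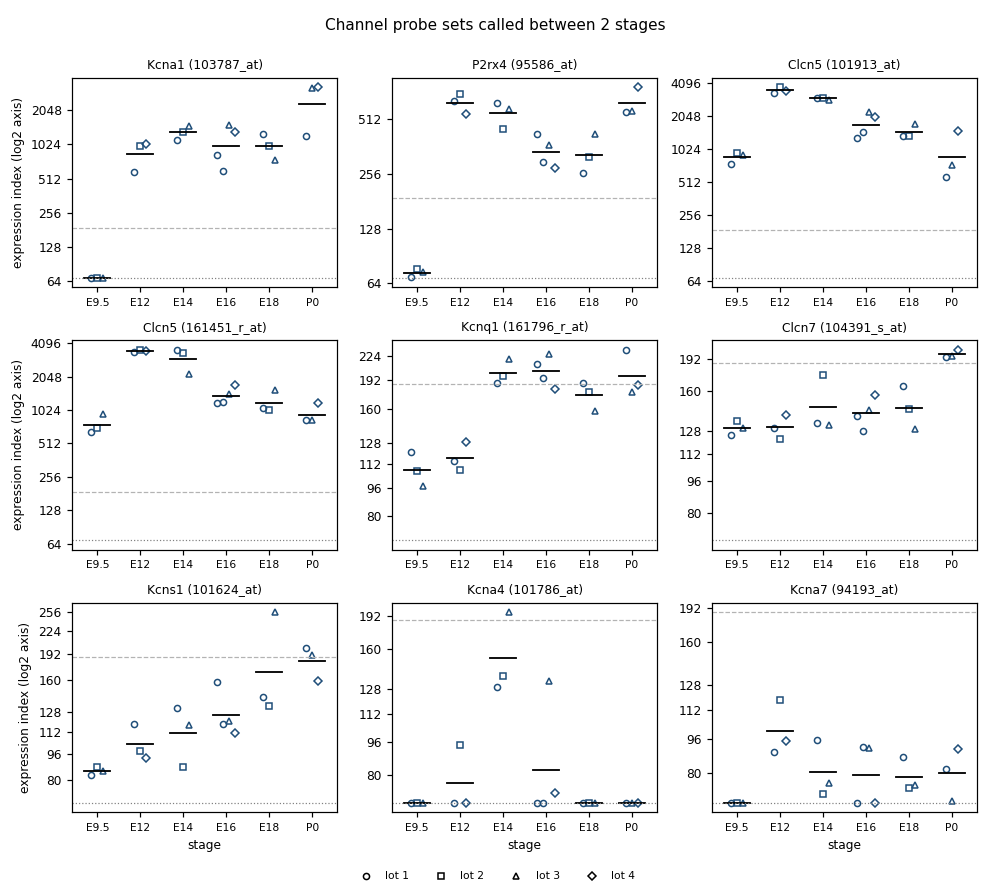
The 9 channel probe sets called between stages, 1 point per array on a log2 axis of the expression index (values under the floor drawn at it), with a bar at the mean of the log2 values and symbols by lot. The dotted line is the floor and the dashed line the 50th percentile, and P2rx4, Kcna1 and Clcn5 are lowest at E9.5 or at E9.5 and P0.

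E14 against E12 spans the step that the labels name as Schwann cell precursor cells to Schwann cells. Kcna4 and Kcnq1 rose and no channel fell, 2 of 84 probe sets (2.38%), where 2.09% of all were called, 1.08% as higher and 1.02% as lower. The median change was 0.08 for the channels and -0.01 for all. Of the cell type markers, 2 of 8 fibroblast ones rose and 1 of 7 erythroid ones fell, and their part in these calls was not tested. Kcnq1, the pore of a slow delayed rectifier of heart and epithelia, read 114, 108 and 129 at E12 and 189, 197 and 220 at E14 on probe set 161796_r_at. The arrays of these stages did not overlap, and the rise was 1.73-fold (log2 change 0.79, SE 0.15, adjusted p = 0.0061), with 0.73 within lot 1 and 0.86 within lot 2. Afterwards it read 182 to 228 at E16, 158 to 189 at E18 and 178 to 234 at P0, above the E12 values on every array. The other Kcnq1 probe set, 99322_at, changed by 0.36 (SE 0.36, adjusted p = 0.78), so the rise rests on 1 of 2 probe sets. Kcna4, an A-type subunit that inactivates rapidly, read 46.2, 94.3 and 65.4 at E12 and 130, 138 and 196 at E14. With 2 of 3 E12 arrays at the floor, it rose at least 2-fold (log2 change 1.00, SE 0.23, adjusted p = 0.026). The call was lost in 8 of 28 alternatives, over which the adjusted p was 0.0018 to 0.53, among them the lot block (0.056) and the omission of E12 replicate 1 (0.12), E12 replicate 4 (0.093), E14 replicate 2 (0.06) or E14 replicate 3 (0.14). Without P0 replicate 4 the count for this comparison was 4.

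E16 against E14 follows Schwann cells to their early stage in the labels' terms. Clcn5 and Kcna4 fell and no channel rose, 2 of 84 (2.38%), where 1.69% of all were called, 0.586% as higher and 1.10% as lower. The median change was -0.01 for the channels and -0.04 for all. Of the cell type markers, Col1a1 of fibroblasts rose. Fabp7 of glia, Gap43 of neurons, Ctss of macrophages and Hbb-y of erythroid cells fell. Their part in these calls was not tested. Clcn5 on probe set 161451_r_at read 3600, 3330 and 2170 at E14 and 1190, 1200, 1430 and 1710 at E16, a 2.17-fold fall without overlap (log2 change -1.11, SE 0.21, adjusted p = 0.0079). Over the alternatives the adjusted p was 0.00032 to 0.1, and the call was lost without the lot 1 arrays of E16 and P0 (0.1), without E14 replicate 1 (0.073) and without E14 replicate 2 (0.05). On the other probe set, 101913_at, E14 read 3020, 3000 and 2880 and E16 read 1300, 1450, 2210 and 2020, also without overlap, but the change of -0.80 (SE 0.26) had an adjusted p of 0.18. Kcna4 read 47.6, 55.2, 134 and 72.2 at E16, of which 134 overlaps the E14 arrays. Its fall of at least 1.85-fold (log2 change -0.89, SE 0.21, adjusted p = 0.041) was lost in 20 of 28 alternatives (0.00095 to 0.49), among them the lot block (0.065), the omission of any 1 array of E14 (0.066 to 0.23), of E16 replicate 1 (0.13), 2 (0.13) or 4 (0.093), and of 9 arrays of other stages (0.051 to 0.061). At E18 and P0 every Kcna4 value was below the floor.

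No channel probe set was called for E18 against E16 or for P0 against E18 with limma, where 0.0768% and 0.125% of all probe sets were called. In the former 0.00960% were higher and 0.0672% lower, and in the latter 0.0384% and 0.0864%. The median change was -0.03 for the channels and -0.01 for all at E18, and 0.04 and 0.01 at P0. At an unadjusted p under 0.05 there were 4 and 11 of the 84 channel probe sets, where 8.07% and 11.7% of all probe sets tested passed. Without P0 replicate 4 the count for P0 against E18 was 3, and without E18 replicate 3 it was 1. Kcna1 read 1270, 1000 and 749 at E18 and 1220, 3220 and 3270 at P0, where replicate 1 lies inside the E18 range (log2 change 1.25, SE 0.38, adjusted p = 0.21).

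P0 against E12 spans the whole series in the nerve. Kcna1, Kcnq1, Kcns1 and Clcn7 were higher at P0 and both probe sets of Clcn5 were lower, 6 of 84 (7.14%), where 16.4% of all were called, 4.53% as higher and 11.8% as lower. Under quantile normalization the calls over all probe sets were 753 higher and 1108 lower, from 472 and 1233, and those of channels 8 higher and 2 lower. The median change over the channels was 0.19, with 0.23 within lot 1 and 0.09 within lot 4, and over all probe sets -0.02. Without P0 replicate 4, 12 channel probe sets were called. The GAPDH ratio was higher at P0 than at E12 on every array, and with it as a covariate 12 channel probe sets were higher and 2 lower. Over all 10414 probe sets that fit called 554 higher and 655 lower. The channel share was then no longer below that of all. P0 against E12 and E12 against E9.5 share the E12 arrays. Markers of other cells were called here too, with 3 of 8 fibroblast markers higher. Lower were 3 of 10 tested macrophage markers, 2 of 7 erythroid, 2 of 11 neuronal and 2 of 6 mural cell ones. Of 5 glial markers 1, Fabp7, was lower. The part of such markers in the channel results was not tested.

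Kcna1 at P0, with the values just given, rose 2.77-fold over E12 (log2 change 1.47, SE 0.38, adjusted p = 0.014), with 1.06 within lot 1 and 1.65 within lot 4. All P0 arrays were above all E12 arrays, but the call was lost without E12 replicate 1 (0.074) and without P0 replicate 3 (0.072), with 0.00015 to 0.074 over the alternatives. Between the ends of this span Kcna1 read 1130, 1320 and 1490 at E14 and 594 to 1510 at E16, and its F-test over the nerve stages had an adjusted p of 0.064. Kcnq1 (161796_r_at) was 1.69-fold higher at P0 than at E12 (log2 change 0.76, SE 0.15, adjusted p = 0.0019), and 99322_at changed by 0.24 (SE 0.36, adjusted p = 0.72). Kcns1, a silent subunit that modifies Kv2 channels, read 118, 97.9 and 93.3 at E12 and 200, 190 and 159 at P0. That is a 1.78-fold rise (log2 change 0.83, SE 0.22, adjusted p = 0.017) of a probe set that stayed below the 50th percentile as a stage mean. It was lost in 7 of 28 alternatives (0.004 to 0.099), among them the GAPDH covariate (0.099) and the omission of E12 replicate 2 (0.063), E12 replicate 4 (0.064), P0 replicate 1 (0.064) or P0 replicate 3 (0.058).

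Clcn7, the chloride and proton exchanger of lysosomes, read 130, 122 and 140 at E12 and 195, 196 and 203 at P0 on probe set 104391_s_at. This 1.52-fold rise (log2 change 0.60, SE 0.14, adjusted p = 0.0069) held under all 28 alternatives, but the other Clcn7 probe set, 104392_at, changed by 0.11 (SE 0.18, adjusted p = 0.74). The call of 104391_s_at by the F-test over the nerve stages (adjusted p = 0.043) was lost in 18 of 28 alternatives. Clcn5 at P0 overlapped its E9.5 values on both probe sets. It read 574, 735 and 1500 at P0 on 101913_at, a 4.08-fold fall from E12 (log2 change -2.03, SE 0.27, adjusted p = 8.5e-05), and 832, 829 and 1180 on 161451_r_at, a 3.76-fold fall (-1.91, SE 0.23, adjusted p = 2.2e-05). Both falls held under all 28 alternatives. Within lot 1 they were -2.52 and -2.04, and within lot 4, which holds the P0 array of the lowest GAPDH ratio, -1.21 and -1.58.

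Of the 13 channel probe sets called by the F-test over 6 stages, 5 had no call between stages. They were Clcn3 (102786_at), Clcn4 (99672_at), Scn10a, Kcnj12 and Kcnh2, and the first 4 of these had their lowest stage mean at E9.5. The Clcn3 call rests on 1 of 4 probe sets (adjusted p = 0.18 for 94464_at, 0.19 for 94465_g_at and 0.79 for 94463_at) and the Clcn4 call on 1 of 2 (0.15 for 104704_at). Clcn3, like Clcn5 an endosomal exchanger, read 790, 973 and 751 at E9.5, 1170, 1140 and 1460 at E12, 2110, 1930 and 2170 at E14, 1650 to 2410 at E16, 2390, 2190 and 2060 at E18 and 1790, 1260 and 2800 at P0 (adjusted p = 0.00059). The E9.5, E12 and E14 arrays form 3 separate ranges, in rising order. Clcn4, also an endosomal exchanger, had means of 182 ± 34.2 at E9.5 and 422 ± 59.5 at E12 (SD, n = 3 and 3) and a change of 1.22 between them (SE 0.40, adjusted p = 0.052). Its F-test (adjusted p = 0.038) lost the call in 12 of 28 alternatives (0.00035 to 0.17), among them the omission of any 1 array of E9.5 (0.091 to 0.17), E14 (0.051 to 0.053) or E18 (0.055 to 0.063), and of E12 replicate 1 (0.052) or E12 replicate 2 (0.057).

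Scn10a encodes Nav1.8, the sodium channel of pain-sensing neurons that tetrodotoxin does not block. It read 496, 333 and 260 at E9.5, 660, 509 and 644 at E12, 842, 668 and 1130 at E14, 588, 598, 852 and 1070 at E16, 987, 1000 and 866 at E18 and 589, 878 and 714 at P0. Every nerve array was above the 3 of E9.5, and the F-test (adjusted p = 0.006) held under all 28 alternatives, while E12 against E9.5 alone gave 0.78 (SE 0.27, adjusted p = 0.068). Kcnj12, the strong inward rectifier Kir2.2, read 169 to 179 at E9.5, 176 to 192 at E12 and 269, 305 and 311 at E18 (F-test adjusted p = 0.026). That call was lost in 7 of 28 alternatives (0.00059 to 0.067), namely without any 1 array of E9.5 (0.054 to 0.067), without E12 replicate 1 (0.054) or 2 (0.057) and without E18 replicate 1 (0.063) or 3 (0.058). Kcnh2, the channel also called hERG, was highest at E14, where it read 541, 653 and 549, against 320 to 399 at E12 and 337 to 483 at E16. Its F-test over 6 stages (adjusted p = 0.018) was lost under quantile normalization (0.051) and without E14 replicate 2 (0.098), and lay between 0.0018 and 0.098 over the alternatives. E14 against E12 alone gave a change of 0.70 (SE 0.18) with an adjusted p of 0.05, which did not pass the limit.

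At E16 and P0, Clcn3 and Clcn4 were highest on arrays with a low GAPDH 3'/5' ratio, and at E18 and E14 this differed between probe sets. At E16 the GAPDH 3'/5' ratio was 5.8 and 9.12 in replicates 1 and 2 and 4.26 and 3.84 in replicates 3 and 4. Clcn3 on 94464_at read 278 and 229 in the former and 890 and 432 in the latter, and Clcn4 on 99672_at 324 and 308 against 776 and 631. At P0 the ratio was 7.69, 6.8 and 4.69 in replicates 1, 3 and 4, and Clcn4 on 99672_at read 272, 427 and 1050, Clcn3 on 94464_at 244, 214 and 852. At E18, replicate 1 had the highest ratio (4.83, against 4.11 and 4.18) and the highest Clcn3 on 94464_at (537, 484 and 370) and Clcn4 on 104704_at (713, 507 and 370). Clcn4 on 99672_at read 584, 496 and 614 at E18, highest in replicate 3. At E14, replicate 1 had the highest ratio (6.23, against 5.1 and 5.45) and the highest Clcn4 on 99672_at (399, 348 and 338). Clcn4 on 104704_at (265, 357 and 387) and Clcn3 on 94464_at (303, 272 and 379) were highest in replicate 3 at E14. Kcnd3 was lower on the arrays of low ratio at E16 and P0, with 426, 378, 203 and 216 at E16 and 534, 536 and 315 at P0. Some probe sets called between stages differed between such arrays too. In E16 replicates 1 to 4, Clcn5 read 1300, 1450, 2210 and 2020 on 101913_at and 1190, 1200, 1430 and 1710 on 161451_r_at. At P0 both were highest in replicate 4, at 1500 and 1180. Kcna1 read 829, 594, 1510 and 1310 at E16 and 1220, 3220 and 3270 at P0. P2rx4, Kcnq1 (161796_r_at), Kcns1 and Kcna7 did not split this way at E16. E16 replicates 1 and 2 are also the lot 1 arrays of that stage. The part of RNA quality or of the lot in these differences was not tested. The panels of Clcn3, Clcn4 and the GAPDH ratio show these arrays.

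**Figure D4:**
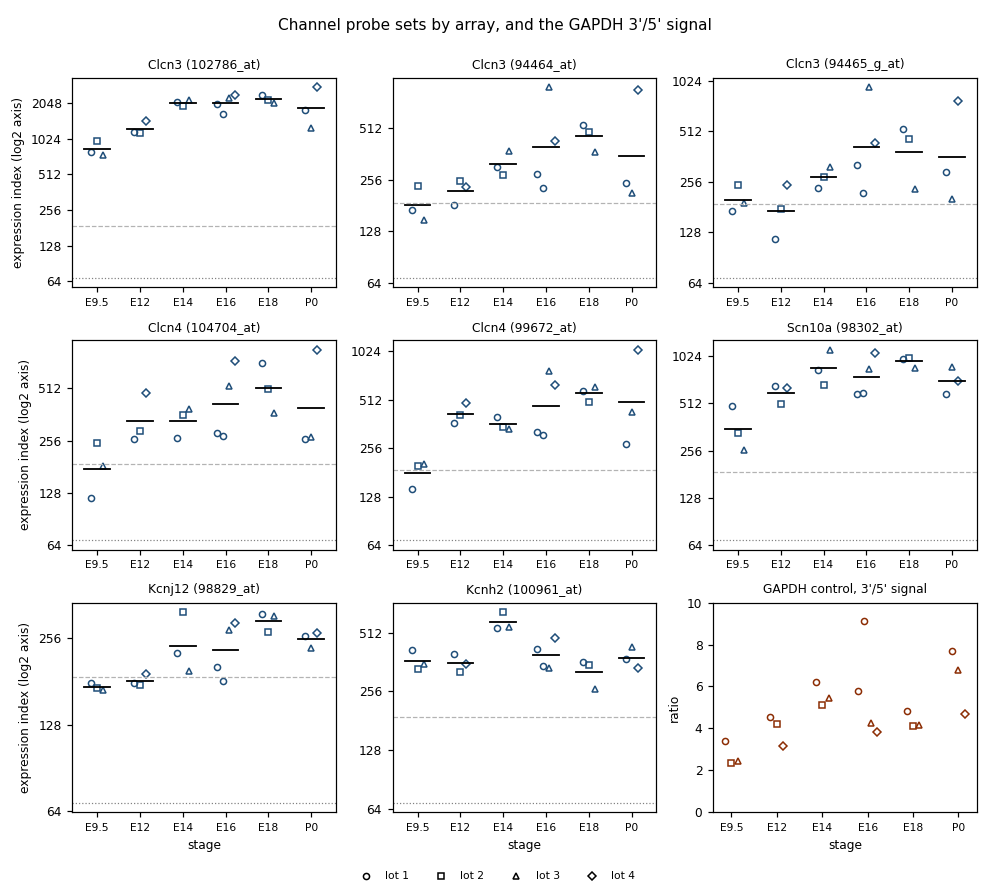
Expression index by array on a log2 axis for 8 channel probe sets without a call between stages, drawn as the mean of log2 values (bar) and points by lot, with the floor dotted and the 50th percentile dashed. The last panel gives the GAPDH 3'/5' signal ratio, and the arrays of lot 3 and lot 4 at E16 and of lot 4 at P0 are high within their stage for Clcn3 94464_at and Clcn4 99672_at and low for this ratio.

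The pore subunits of voltage-gated potassium channels were 19 probe sets for 16 genes, 7 of them expressed and 16 tested. Over the 6 stages 5 of the 16 tested were called, where 29.0% of all probe sets tested were. The 5 belong to Kcna1, Kcna4, Kcnh2, Kcnq1 (161796_r_at) and Kcns1. Kcnq1 on 99322_at ran from 741 to 2580 over the 19 arrays (median 977), and the highest value was E9.5 replicate 1, where the other E9.5 arrays read 741 and 977. Kcnd3 and Kcnd1 encode A-type subunits of the Kv4 subfamily. Kcnd3 had a change of 0.93 (SE 0.31) for P0 against E12 with an adjusted p of 0.053, and no overlap between the arrays. For Kcnd1 the largest of the 6 changes was E16 against E14 at -0.33, with a 95% interval of -0.73 to 0.08, and for Kcna5, Kv1.5, E14 against E12 at 0.57 (-0.34 to 1.48). These intervals and those that follow belong to the largest of 6 changes and are not adjusted for that choice. Below the 50th percentile at every stage were Kcna2, Kcna3, Kcna4, Kcna6, Kcna7, Kcnc1, Kcnd2 (both probe sets), Kcnh1, Kcns1, Kcns2 and another probe set of Kcna5.

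Of 7 probe sets for auxiliary subunits of these channels 3 were expressed, 4 tested and none called. Here and in the families below, such counts stand beside the 29.0% of all probe sets tested that the F-test over 6 stages called. With so few probe sets per family, they were not read as a difference from that share. Kcnab2 and Kcnab3 encode beta subunits that sit on the inner face of the channel, and Kcne1 a small subunit that slows Kcnq1. Kcnab2 (162182_f_at) ran from 135 to 450 over the arrays (median 212), the highest being E9.5 replicate 1, where the other E9.5 arrays read 147 and 157, and its other probe set was at or below the floor on every array. Kcnab3 ran from 41.1 to 281 (median 160), and its largest change was 0.88 for E18 against E16 (95% interval -0.01 to 1.77). Kcne1 ran from 117 to 318 (median 162), with E18 against E16 at -0.41 (-0.96 to 0.13).

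Inward rectifier potassium channels were 15 probe sets for 11 genes, 7 of them expressed, 13 tested and 1 called over the stages, Kcnj12. The same F-test called 29.0% of all probe sets tested. Kcnj8 and Kcnj11 encode Kir6.1 and Kir6.2, the pores of ATP-sensitive channels. Kcnj8 ran from 454 to 977 over the arrays (median 643), with a largest change of 0.39 for E18 against E16 (95% interval -0.03 to 0.81), and Kcnj11 from 177 to 339 (median 286). Kcnj6 and Kcnj9 encode pores opened by G proteins. Kcnj6 (92523_at) read 573, 695 and 484 at E14 and 401 to 459 at E16, without overlap, and its change of -0.44 (SE 0.15) had an adjusted p of 0.2. Kcnj9 (98332_at) was listed at 0 on E9.5 replicate 1, where the other E9.5 arrays read 247 and 392, and at E18 read 516, 584 and 307. Its largest change was 0.72 for P0 against E12 (95% interval -0.26 to 1.70). Kcnj1 (both probe sets), Kcnj2, Kcnj3, Kcnj4, Kcnj5 and further probe sets of Kcnj9 and Kcnj15 stayed below the 50th percentile.

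Tandem-pore potassium channels, which carry background leak currents, were 5 probe sets for 5 genes, all tested and none called. Kcnk4 encodes TRAAK, a leak channel opened by stretch. It read 605 to 753 at E9.5, 756 to 862 at E12, 680 to 811 at E14, 631 to 763 at E16, 595 to 709 at E18 and 624 to 733 at P0. Its largest change was -0.26 for P0 against E12 (95% interval -0.54 to 0.03), so the stages differed by little more than arrays of a stage did. Kcnk7 ran from 405 to 729 (median 536), with 0.45 for P0 against E12 (0.03 to 0.86, adjusted p = 0.14). Kcnk1, Kcnk2 and Kcnk3 were below the 50th percentile.

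Of the Slo and SK potassium channels, most of which calcium opens, 5 probe sets for 5 genes were tested and none was called. Kcnn4 encodes the intermediate-conductance channel KCa3.1. It read 286, 301 and 225 at E14 and 543, 531, 379 and 334 at E16, with no overlap and a change of 0.70 (SE 0.22, adjusted p = 0.16). Kcnn1, the small-conductance channel SK1, ran from 271 to 461 (median 323), with 0.37 for P0 against E18 (95% interval 0.06 to 0.69, adjusted p = 0.35). Kcnu1, the Slo3 channel of sperm, ran from 183 to 330 (median 234) with no change beyond -0.13 (-0.51 to 0.25), and Kcnmb1, the beta subunit of the BK channel in smooth muscle, from 125 to 239 (median 160). Kcnma1, the BK pore itself, was below the 50th percentile at every stage.

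Sodium channel probe sets mostly lay at or below the floor, under which values were not ordered. Of 8 probe sets for 6 genes, 5 were at or below the floor on all 19 arrays, both of Scn1a, those of Scn3a and Scn7a and 1 of Scn8a, and only Scn10a and Scn9a passed the filter. Scn9a, Nav1.7, passed the 50th percentile at E18 alone, where 1 of 3 arrays was high. It read 491 on E9.5 replicate 1 against 104 and 85.3 on the others of that stage, and 484 on E18 replicate 3 against 126 and 152, and its other arrays lay between 85.3 and 282.

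Calcium channel pores were 8 probe sets for 7 genes, all tested and none called, where the F-test over 6 stages called 29.0% of all. Cacna1a, the P/Q-type pore of nerve terminals, read 644 to 944 at E9.5, 666 to 811 at E12, 709 to 928 at E14, 760 to 1010 at E16, 799 to 1000 at E18 and 773 to 999 at P0, so that all stages overlapped. Its largest change was 0.27 for P0 against E12 (95% interval -0.11 to 0.64). Cacna1c, an L-type pore, ran from 322 to 498 (median 378), with -0.18 for E18 against E16 (-0.48 to 0.13). Cacna1e, the R-type pore, ran from 251 to 481 (median 328) on 100338_s_at and stayed below the 50th percentile on its other probe set, as did Cacna1b, Cacna1g, Cacna1h and Cacna1s.

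The 5 auxiliary calcium channel probe sets were tested too, with none called. Cacna2d3, an alpha2delta subunit that helps pores reach the membrane, read 2350 to 3010 at E9.5, 2190 to 2750 at E12, 2030 to 2610 at E14, 1670 to 2920 at E16, 1970 to 2760 at E18 and 1980 to 2220 at P0. All stages overlapped E12, and the largest change was -0.24 for P0 against E12 (95% interval -0.65 to 0.17). Cacng2, stargazin, which also escorts AMPA receptors, ran from 329 to 555 (median 387), with -0.18 for E12 against E9.5 (-0.54 to 0.17). Cacna2d1, Cacnb2 and Cacng1 were below the 50th percentile.

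The 3 HCN probe sets, for 2 genes of the pacemaker current, were all expressed and tested, and none was called. Hcn2 ran from 1210 to 3090 on 94195_r_at (median 1850), with 0.38 for P0 against E18 (95% interval -0.18 to 0.94), and from 233 to 460 on 94194_s_at (median 301), with 0.41 for E16 against E14 (-0.02 to 0.85). At E16 the arrays read 1390, 2620, 1210 and 1930 on the first and 310, 285, 459 and 460 on the second, and replicate 2 was the highest on the one and the lowest on the other. Hcn3 ran from 250 to 435 (median 310), with 0.37 for P0 against E12 (-0.02 to 0.75).

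ClC proteins were 13 probe sets for 6 genes, 10 of them expressed. The F-test over 6 stages called 29.0% of all probe sets tested, and 5 of the 12 tested here. These were Clcn5 (both probe sets), Clcn3 (102786_at), Clcn4 (99672_at) and Clcn7 (104391_s_at), all of them genes of exchangers inside the cell. The Clcn7 call over 6 stages (adjusted p = 0.022) was lost in 4 of 28 alternatives (0.0066 to 0.075), among them the omission of P0 replicate 1 (0.063), 3 (0.07) or 4 (0.062). Clcn1, the chloride channel of skeletal muscle membrane, ran from 135 to 610 on 95376_at (median 396) and was at or below the floor on every array on its other probe set. Of the 11 skeletal muscle markers on the array, 5 or 6 lay above the 50th percentile at each stage. None of the 10 tested was called in any of the 6 comparisons, and their part in the Clcn1 values was not tested. Clcn2, a chloride channel of the plasma membrane, was below the 50th percentile at every stage. Clcn7 on 104392_at ran from 1170 to 2160 (median 1430), the highest value being E16 replicate 2.

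TRP channels were 9 probe sets for 8 genes, 7 of them tested and none called, where the same F-test called 29.0% of all. Trpm1, known from melanocytes and retina, read 423 to 497 at E9.5, 401 to 510 at E12, 474 to 511 at E14, 477 to 572 at E16, 463 to 535 at E18 and 476 to 613 at P0, with a largest change of 0.32 for P0 against E12 (95% interval 0.03 to 0.61, adjusted p = 0.13). Trpc5, a calcium-permeable channel of neurons, ran from 230 to 476 (median 287). The binding protein gene Trpc4ap ran from 716 to 1560 (median 1070), with 0.63 for P0 against E18 (0.19 to 1.07, adjusted p = 0.26). Trpc1 (both probe sets), Trpc4, Trpc6, Trpm7 and Trpv2 were below the 50th percentile.

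Of the 4 P2X receptor genes, ATP-gated channels, P2rx4 alone was called, where the F-test over 6 stages called 29.0% of all probe sets tested. P2rx6 ran from 199 to 675 over the arrays (median 457), the lowest being E12 replicate 1, and its largest change was 0.41 for E14 against E12 (95% interval -0.23 to 1.05). P2rx7, which opens at high ATP and is best known from macrophages, ran from 295 to 461 (median 374), with 0.32 for P0 against E12 (-0.02 to 0.65). P2rx1 was below the 50th percentile. The macrophage receptor Csf1r rose 2.18-fold between E9.5 and E12 (log2 change 1.13, SE 0.22, adjusted p = 0.0019).

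Of the 19 genes with several channel probe sets, 6 had 1 probe set above the 50th percentile at every stage and another below it at every stage, Cacna1e, Clcn1, Clcn3, Kcnab2, Kcnj15 and Kcnj9. For 3 of them, Clcn1, Kcnab2 and Kcnj15, the second was at or below the floor on all arrays. Clcn4, Clcn5, Clcn7, Hcn2, Kcnj6 and Kcnq1 had both probe sets above the 50th percentile in at least 1 stage.

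Genes whose products place channels or work beside them were listed apart from the channels, and their calls are read against the same shares of all probe sets. The median change at E12 against E9.5 was 0.17 for channel anchors, 0.35 for pumps and cotransporters, 0.02 for calcium stores, 0.03 for ligand-gated channels and 0.02 for connexins and others, with 0.01 over all. Of 28 listed anchors and proteins of the node of Ranvier, the gap between myelin segments where axonal sodium channels cluster, 19 were on the array and 17 tested. Between E9.5 and E12 5 rose and 1 fell, at E14 against E12 2 rose, and at P0 against E12 5 rose, with none called in the other 3 comparisons. Of all probe sets 14.1, 2.09 and 16.4% were called in these comparisons. The calls of Sptan1, Epb41l2 and Ezr at E12 against E9.5 were each lost in 2 alternatives or more. Those of Ezr at E14 against E12 and of Nrcam and Cntn1 at P0 against E12 were each lost in 3. Ank3, ankyrin G, which anchors sodium channels, went from 57.8 ± 22.8 at E12 (2 of 3 arrays at the floor) to 692 ± 67.6 at E14 (SD, n = 3 and 3), a rise of at least 9.62-fold (log2 change 3.27, SE 0.34, adjusted p = 2e-05), and was at least 11.5-fold higher at P0 than at E12. Cntn1, contactin, an adhesion molecule of the paranode, rose 4.19-fold between E9.5 and E12, from 85.6 ± 11.5 to 365 ± 90 (adjusted p = 0.00065). Ezr, ezrin of Schwann cell microvilli, rose 6.39-fold from 180 ± 18.1 at E12 to 1260 ± 678 at P0 (adjusted p = 3e-05). Dag1, dystroglycan, rose 2.58-fold at E12 against E9.5 (adjusted p = 0.0028) and 2.48-fold at P0 against E12 (adjusted p = 0.0039).

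Of the sodium pump and chloride cotransporter genes 13 of 20 were tested, with 2 higher at E12 than at E9.5, 1 lower at E14 than at E12, and 1 higher and 1 lower at P0 than at E12. Slc12a7, the potassium and chloride exporter KCC4, rose 2.04-fold at E12 (270 ± 40.6 to 547 ± 20.4, adjusted p = 0.00073), fell 2.41-fold at E14 (adjusted p = 0.00051) and was 6.72-fold lower at P0, at 81.7 ± 9.93, than at E12 (adjusted p = 2.2e-08). Slc12a2, the chloride importer NKCC1, rose 2.57-fold at E12 (adjusted p = 0.003). Fxyd1, a regulator of the sodium pump, was 2.33-fold higher at P0 than at E12 (adjusted p = 0.0015).

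Of the genes of calcium stores, pumps and exchangers 11 of 23 were tested. Stim1, the sensor of store calcium, went from 77.3 ± 1.63 at E9.5 to 691 ± 99.9 at E12, an 8.89-fold rise (log2 change 3.15, SE 0.22, adjusted p = 4.5e-08), then fell 2.68-fold at E16 against E14 (adjusted p = 0.00081), and was 2.99-fold lower at P0 than at E12 (adjusted p = 0.00012). The other calls of this list were lower Calm2 at E12 than at E9.5, and higher Atp2b2 with lower Slc8a1 and Calm2 at P0 than at E12. All 4 were lost in 1 alternative or more.

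Of 41 ligand-gated channel genes that the name rule leaves out 22 were tested. Gria1, an AMPA receptor subunit, was below the floor on all E9.5 arrays and at 1540 ± 350 at E12, at least 22.1-fold higher (adjusted p = 6.2e-05). Gria2, the AMPA subunit that blocks calcium entry, went from 73.9 ± 25 at E12 (1 of 3 arrays at the floor) to 783 ± 833 at P0, at least 6.79-fold higher (log2 change 2.76, SE 0.48, adjusted p = 0.00084). The other calls of this list were lower Gabra2 at E12 than at E9.5 and higher Gria2 at E16 than at E14, and both were lost in 13 alternatives or more. Of 22 tested connexins and other channels, Gja1, connexin 43, fell 8.1-fold from 5300 ± 297 at E12 to 723 ± 405 at P0 (log2 change -3.02, SE 0.30, adjusted p = 3.2e-06). Gja4 was called higher at E12 than at E9.5 and Aqp2 higher at P0 than at E12, and both calls were lost in 4 alternatives or more.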

How the data were processed

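GFP-positive cells sorted from trunk and sciatic nerve were measured on 19 Affymetrix arrays of 12488 probe sets. Per the labels, RNA went through 2 rounds of in vitro transcription, arrays were scanned with MAS 5.0, and the authors deposited linear intensity values, the model-based expression index of dChip after smoothing-spline normalization, with probe sensitivities from 18 arrays (the labels name neither the array left out nor a dChip version). Depth has no meaning for arrays; their number limits the precision. Genes were named by the platform annotation: 10833 probe sets had 1 symbol, 396 several, 1193 none and 66 were controls.

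Values were raised to the floor of 68.5 (25th percentile) and set on the log2 scale, and probe sets above it on at least 3 arrays were fitted with limma 3.58.1 in R 4.3.3, with 1 mean per stage over all arrays (13 residual degrees of freedom) and Benjamini-Hochberg adjustment within each comparison over all 10414 probe sets. Alternatives were 9 settings and the omission of each array. Channels with a stage mean above the 50th percentile were named, with full values for those called and the 3 of highest stage mean per family, and below it only where called, and up to 4 genes by largest called change from each other list. In the other lists the probe set of highest mean stood for each gene. The members and lists were chosen with earlier results of these data known. Promoter sequences are those of RefSeq (GRCm38.p6).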

Additional observations from a re-analysis of the deposited data

Results flagged for a closer look

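Among 49 channel probe sets with 4 arrays at E16, the only stage with more than 3 arrays, 3 had 1 array far from the others (its gap to the nearest as a share of the range was 0.851 or more), a rule by which chance alone flags about 1 group in 20. P2rx7 (101712_at) read 321 on E16 replicate 4 and 425 to 429 on the others. Kcna5 (102295_at) read 257 on E16 replicate 2 and 161 to 163 on the others. Kcnj6 (92524_at) read 239 on E16 replicate 2 and 162 to 172 on the others.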

How the results depend on the processing

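Of the 15 channel calls between stages, 9 held under every alternative, 6 were lost under at least 1 and 0 reversed. Counts of channel probe sets called moved by over 1.5 times as follows. With array weights they were 11 for E12 against E9.5 (from 5), 5 for E14 against E12 (from 2), 8 for E16 against E14 (from 2), 6 for E18 against E16 (from 0), 7 for P0 against E18 (from 0), 10 for P0 against E12 (from 6), 35 over 6 stages (from 13) and 31 over 5 nerve stages (from 8). With the GAPDH 3'/5' signal as covariate they were 9, 4 and 14 for E12 against E9.5, E16 against E14 and P0 against E12, and 21 and 14 over 6 and 5 stages. With this covariate, calls over all probe sets were 1472 higher and 357 lower, 93 and 179, and 554 and 655 in the same comparisons. Quantile normalization gave 1 for P0 against E18 and 10 for P0 against E12. A floor at the 10th percentile gave 1 for E14 against E12 and for E16 against E14, and E16 against E14 also had 1 with the floor at the 40th percentile and with no filter on dim probe sets. Without the lot 1 arrays of E16 and P0, E16 against E14 had 1 call, a rise, and both falls were lost, and P0 against E18 had 1. Leaving out each array in turn gave 4 to 7, 1 to 4, 0 to 3, 0 to 0, 0 to 3 and 5 to 12 for the 6 comparisons in order, 11 to 18 over 6 stages and 6 to 11 over 5. The cause of these moves was not tested.

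With the replicate number as a block, E16 against E14 had 4 calls, and Kcna7 at E12 against E9.5 (adjusted p = 0.074) and Kcna4 at E14 against E12 (0.069) were not called. Deviations from the stage means of 38 same-numbered pairs had a mean correlation of 0.022 (-0.38 to 0.71). Of 19 arrays 6 were most like one of their own number. For 39 pairs of the same lot the mean was 0.042 (-0.35 to 0.71), and 9 of 19 arrays were most like one of their own lot. Other pairs had a mean of -0.016 (-0.67 to 0.47). The main fit held no block for number or lot. Low signal limits the rest, since 15 channel probe sets were at or below the floor on all arrays.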
